A study of Caenorhabditis elegans with 20 samples.

Results

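The effect of extra elt-2 copies on the transcriptome of L4 larvae was examined in 10 of the 20 libraries of the series: 5 from the elt-2 overexpressing strain and 5 from its transgenic control. Both strains carried rde-1(ne300) and unc-119(ed3). The overexpressing strain, SD1963, held an extrachromosomal array with elt-2:GFP and unc-119(+), and the control strain, SD1965, held an array with unc-119(+) alone. The array expressed elt-2 from its own upstream region, joined to GFP and the 3′ end of the muscle myosin gene unc-54, and each strain was 1 transgenic line. Larvae were collected whole after 28 hours of feeding on E. coli OP50, from cultures of about 10000 animals, and the culture text of the labels names N2 where the strain labels name SD1963 and SD1965. The other 10 libraries came from the same strains at Day 13 of adulthood. Libraries carried the letters A to E, 1 of each strain per letter, and the strains were compared within letters. Of 21383 genes in the table, 8696 had enough counts to be tested at L4.

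ELT-2 is a GATA transcription factor that is made in the intestine from the embryo onwards and activates genes for digestion, nutrient uptake and defence against microbes. L4 larvae are in the last larval stage, at whose end the worm builds its adult cuticle, sheds the old one and starts to make yolk, sperm and then oocytes. Cuticle collagens, cuticlins and moulting enzymes come and go in waves in every moulting cycle, so that their levels in a population depend on the point in the cycle at which it was collected.

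The L4 libraries held between 18653974 and 42317549 counts. In letters A to C the control libraries were deeper than those of the overexpressing strain, with 38935504 to 42317549 against 27319966 to 33472155 counts. In letters D and E they were not, with 18653974 up to 23189983 counts for control and 20812282 to 25967701 in overexpressing libraries. The 3% most highly counted genes took 93.0% to 96.7% of each library, and the cytosolic ribosomal proteins alone took 54.9% to 66.6%. Transcripts of intestine, muscle, hypodermis, sperm, germline and neurons were found in every library. Levels below are CPM, a gene's counts brought to 1 common library total, with TMM factors over the 10 L4 libraries. Differences within a letter are of log2(CPM + 0.5), overexpressing minus control, and understate the change of genes with few counts. Fitted log2 changes are from edgeR's quasi-likelihood test with the letter as a block, and a gene was called at a Benjamini-Hochberg false discovery rate of 10%.

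The libraries of letters A to C stood apart from those of letters D and E in both strains. The yolk genes vit-1 to vit-6, which adults express in the intestine, summed to between 4343 and 11043 CPM in control libraries A to C and to 15.1 and 3.75 CPM in control libraries D and E. Major sperm proteins summed to between 5417 and 6419 CPM in control libraries A to C, and to 499.8 and 112.7 CPM in control libraries D and E. Both transcript groups were therefore far lower in the latter set before any strain was compared. The strain difference separated the letters in the same way. Over the 8696 genes tested, the differences of 2 letters correlated at 0.57 to 0.67 within A to C and at 0.57 for D with E. Across the sets the correlation was -0.01 to 0.12; these are descriptions over genes that share libraries, and genes are not replicates. The labels do not tie the letters to batches. The strains were therefore also fitted in each set alone. In A to C alone 18.6% of all genes tested fell and 17.6% rose. In D and E alone 0.904% were called in either direction. Counts of a list in 1 set are to be read beside these shares.

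The transgenes were checked first. elt-2 (chromosome X, 10481240 to 10483441 in WBcel235) measured 0.583, 0.699, 0.91, 2.07 and 2.84 CPM in control libraries A to E and 3.73, 4.09, 2.54, 6.54 and 8.34 CPM in overexpressing libraries A to E. It was higher in the overexpressing library of every letter, although the groups overlapped because control library E lay above overexpressing library C. It rose by 1.96 ± 0.29 (SE) on the fitted log2 scale, with adjusted p = 0.0418 by edgeR. Flipping the sign of each letter's difference gave an exact two-sided p = 0.063, the smallest this test can give, and an exact two-sided permutation of the groups gave p = 0.0159. Without the top 3% of genes in the library totals, the mean difference of elt-2 was 1.77 in place of 1.57. The libraries read the polyadenylated end of transcripts, and elt-2 on the array ends in the 3′ end of unc-54. How much of the elt-2 count came from the array was not tested.

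unc-119, the rescue gene on both arrays, had 9, 1, 0, 2 and 1 counts in control libraries A to E and 238, 167, 191, 324 and 547 counts in overexpressing libraries A to E. The control libraries were thus at or near the floor of 3 counts despite the array in their label, except for library A. The fitted log2 change of 6.76 ± 0.70 (SE, adjusted p = 0.0255 by edgeR) depends on the count added to such low values. unc-54, which lends its 3′ end to the elt-2:GFP transgene, measured 222, 305, 277, 171 and 167 CPM in control libraries A to E and 112, 126, 129, 134 and 205 CPM in overexpressing libraries A to E. It was lower in the overexpressing library of 4 letters and higher in letter E, and it was not called over all letters (log2 change -0.69, adjusted p = 0.253 by edgeR). In letters A to C alone unc-54 was called lower (log2 change -1.11, adjusted p = 0.0376 by edgeR), while its change in D and E alone was -0.07. Reads from the transgene and from the unc-54 gene itself cannot be told apart in these counts. rde-1, mutated in both strains, had 0.309 ± 0.136 CPM in control libraries, 0.766 ± 0.358 CPM in the others (SD, n = 5 each), and no call over all letters. In letters A to C alone rde-1 was called higher (log2 change 1.94, adjusted p = 0.0341 by edgeR), on 3 to 13 counts per control library.

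**Figure D1:**
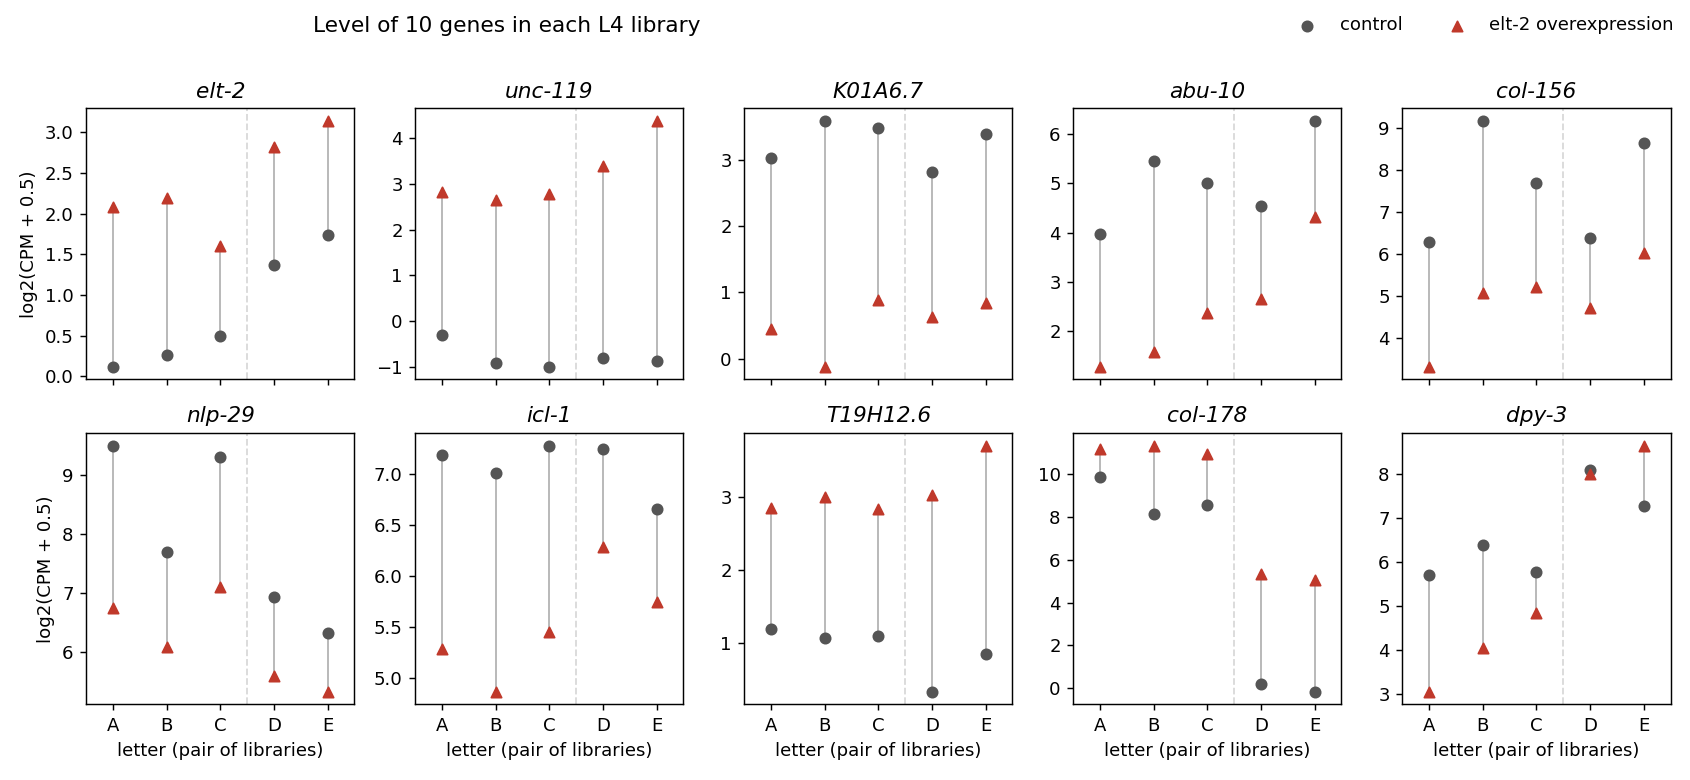
Level of 10 genes in each L4 library, as log2(CPM + 0.5) against the letter of the pair. Grey circles are control and red triangles overexpressing libraries, a line joins the libraries of 1 letter, and the dashed line parts letters A to C from D and E; every letter moves the same way for each gene but dpy-3, which is lower in A to C, level in D and higher in E.

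At L4, 211 of the 8696 genes were called, 69 higher and 142 lower in the overexpressing strain (0.793% and 1.63% of the genes tested). Of these, 66 were higher and 141 lower in all 5 letters. Among all genes tested, 11.0% were higher and 11.4% lower in all 5 letters. Called genes that fell were more abundant, with a median of 8.92 CPM against 2.71 CPM for those that rose, and their median log2 change was -1.89 against 1.66. The groups did not overlap for 59 of the called genes that fell and for 11 of those that rose, beside 1.47% and 1.07% of all genes tested. The count of calls rested on the letters A to C: it was 1 without letter A, and 0 without B or without C (edgeR, with 1175 and 1081 genes at an unadjusted p under 0.05), but 180 without D and 310 without E. Without the letter as a block only 3 genes were called. Of the called genes, 48 that fell and 12 that rose overlap a gene on the opposite strand, so that their reads may not be their own. T19H12.6, K01A6.7, abu-6, col-156, col-54, col-179 and rpl-37, described below, are among them. The share of all genes tested with such an overlap is not given here, so these counts are a limit on the calls and not a result about them. All 211 kept their direction under each alternative in which they were tested. For the 66 and 141 with 1 direction in all 5 letters, leaving letters out could hardly have turned that direction.

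Library totals that leave out the top 3% of genes shifted the median log2 change of all genes from 0.09 to 0.37 and called 241 genes higher and 136 lower. A gene or list near 0 is thus placed above or below it by the scaling, and the median of a list is to be read against that of all genes under the same scaling. With DESeq2 size factors, 49 genes were called higher and 136 lower. Plain library totals, an alternative added after the data were seen, gave a median of 0.41 over all genes, with 676 called higher and 154 lower, and with 1784 higher and 438 lower in all 5 letters in place of 960 and 992. The larger number of calls that fell than that rose was therefore found with TMM and with DESeq2 size factors but not with either kind of total.

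The genes that fell most included several of the glutamine-rich abu and pqn proteins. The list was formed by gene name. Several members are secreted proteins rich in glutamine and asparagine that are known from the cuticle lining the pharynx. Of 47 members tested, 9 fell and none rose, 16 were lower and 3 higher in all 5 letters, and the median log2 change was -0.50 against 0.09 over all genes. In letters A to C alone, 21 of 45 fell and 6 rose, beside 18.6% of all genes in that fit that fell and 17.6% that rose. In letters D and E alone, 3 of 44 fell, where 0.904% of all genes were called in either direction. The members called over all letters were abu-6, abu-8, abu-10, abu-11, abu-15, pqn-8, pqn-54, pqn-71 and pqn-72. abu-6 measured 6.76, 18.6, 16.6, 4.11 and 17.2 CPM in control libraries A to E and 0.553, 1.25, 2.44, 1.2 and 3.41 CPM in overexpressing libraries A to E. No overexpressing library reached the lowest control library. Its log2 change was -2.86 ± 0.38 (SE, adjusted p = 0.036 by edgeR).

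The other members called fell too. abu-10 measured 15.3, 43.1, 31.6, 22.8 and 77 CPM in control libraries A to E and 1.91, 2.46, 4.61, 5.8 and 19.5 CPM in overexpressing libraries A to E, a log2 change of -2.75 (adjusted p = 0.037 by edgeR). pqn-71 fell from 6.52 ± 2.90 to 0.972 ± 0.513 CPM (SD, n = 5 each), with no overlap of the groups. abu-8 fell by 3.62 in A to C and by 1.65 in D and E on the log2 scale, and this difference between the sets was itself called (interaction in edgeR, adjusted p = 0.0784). Such an interaction was called for 7.29% of all genes and for 5 of the 47 members. Some members of the list are close copies of each other, and how reads were shared among copies is not stated.

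A further group, the genes named idpa, idpb, idpc and idpp for intrinsically disordered proteins, fell alongside; it was picked after its values were seen and has no test of its own. Of 25 tested, 15 were called lower and none higher, 18 were lower in all 5 letters, and the median log2 change was -2.20. In A to C it was -2.82, and in D and E -1.33. idpp-12 measured 1.17, 3.11, 1.76, 19.3 and 67.5 CPM in control libraries A to E and 0.166, 0.0347, 0.0334, 5.77 and 11 CPM in overexpressing libraries A to E. Its level was higher in letters D and E of either strain, so that the groups overlapped while every letter was lower (log2 change -3.25 ± 0.63 as SE, adjusted p = 0.0724 by edgeR).

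The col family encodes most of the collagens of the body cuticle. Of 126 col genes tested, 17 fell and 2 rose; 34 were lower and 8 higher in all 5 letters, and the median log2 change was -0.80. The sets of letters differed: in A to C alone 73 of 133 fell and 17 rose, with a median of -1.30, and in D and E alone 24 rose and 13 fell, with a median of -0.49. Of the 48 genes of any kind that rose in D and E alone, 24 were col genes. The interaction was called for 43 of the 126 col genes. The 4 with the largest changes among those that fell were col-156, col-54, col-92 and col-13. col-156 measured 78, 578, 205, 82.8 and 402 CPM in control libraries A to E and 9.45, 33.4, 36.7, 25.8 and 65 CPM in overexpressing libraries A to E. The lowest control library lay above the highest overexpressing one (log2 change -2.78 ± 0.40 as SE, adjusted p = 0.037 by edgeR). col-13 differed by -2.6, -3.36, -2.51, -2.3 and -2.59 in letters A to E, and fell from a mean of 245.9 to 32.4 CPM. col-54, like idpp-12, was most abundant in library E of both strains, at 230.6 CPM in control larvae and 32 CPM with overexpression. Of the 19 col genes called, 10 overlap a gene on the opposite strand, and the use of strand in counting is not stated. The share of all col genes tested with such an overlap is not given here.

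The 2 col genes that rose, col-178 and col-179, lie side by side on chromosome X. col-178 (11199455 to 11200467 in WBcel235) measured 934, 279, 372, 0.64 and 0.385 CPM in control libraries A to E and 2287, 2587, 1949.8, 40.4 and 32.9 CPM in overexpressing libraries A to E. It was abundant in letters A to C of both strains, and close to absent in control libraries D and E. It rose by 2.32 in A to C and by 6.12 in D and E on the log2 scale, and the difference between the sets was called (interaction in edgeR, adjusted p = 0.0303).

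Other cuticle collagens did not hold their direction across the letters. The collagens of the annular furrows, dpy-2, dpy-3, dpy-7, dpy-8, dpy-9 and dpy-10, shape the circumferential grooves of the cuticle, and none of the 6 was called over all letters. In letters A to C alone, 5 of the 6 fell and none rose. The median difference of the list was -2.70, -2.38 and -1.26 in letters A, B and C, -0.1 in D and 1.5 in E. The interaction was called for 5 of the 6. dpy-3 measured 51.7, 84.1, 54, 272 and 154 CPM in control libraries A to E and 7.76, 15.9, 28.2, 258 and 402 CPM in overexpressing libraries A to E. It was lower in each of letters A to C, level in letter D and higher in letter E.

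The body shape collagens, among them sqt-3, rol-6 and dpy-5, gave the same picture. None of 13 was called over all letters, all 13 were lower in each of letters A, B and C, and the 14 tested in the fit of A to C all fell there, with a median of -1.82. In letters D and E the median was 0.25, and 8 of the 13 had a called interaction. sqt-3, a collagen of larval and adult cuticle, differed by -3.14, -3.52 and -1.75 in letters A to C and by 0.49 and 0.14 in letters D and E. These 2 lists rest on letters A to C alone.

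Moulting genes were mostly lower in letters A to C and divided in D and E. Of 17 moulting enzymes and matrix proteins tested, none was called over all letters and none moved 1 way in all 5; 9 of 18 fell in A to C alone, and the median was -1.07 there and 0.34 in letters D and E. mlt-10, which is needed to shed the cuticle, differed by -1.30, -3.75 and -1.29 in letters A to C and by 0.98 and -0.26 in letters D and E. Of 5 moult timing factors tested, including the period homologue lin-42, none was called. Among 22 hedgehog-related proteins, secreted proteins with roles in moulting, grl-4 fell in all letters, from 10.4 ± 10.9 to 3.14 ± 3.37 CPM (SD, n = 5 each), 4 further members were lower in all 5 letters without a call, and 8 of 19 fell and 1 rose in letters A to C alone. Of 6 cuticlins, proteins of the insoluble cuticle layers, cut-2 fell, with a log2 change of -2.11, and 3 including cut-2 were lower in all 5 letters; 4 of 8 fell and 1 rose in A to C alone.

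**Figure D2:**
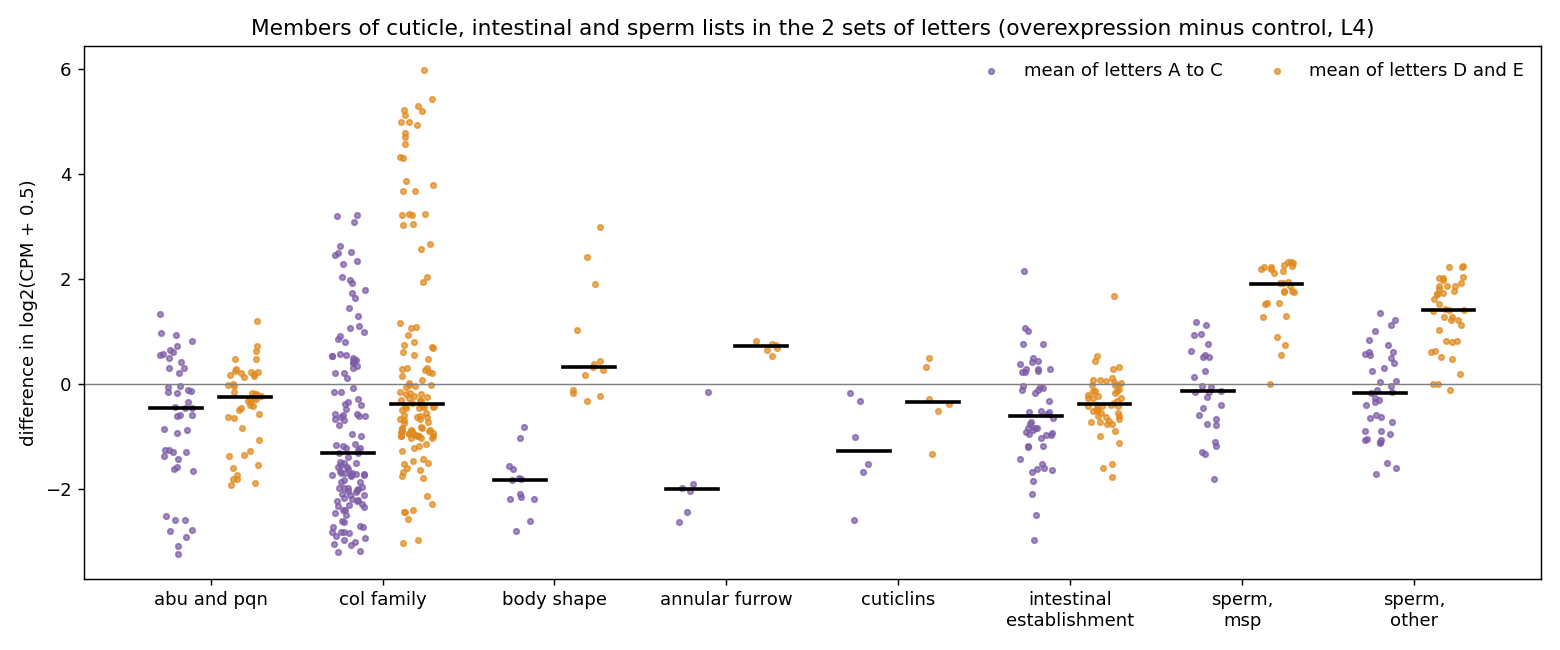
Difference in log2(CPM + 0.5), overexpressing minus control, for every tested member of 8 lists, as the mean over letters A to C (purple) and over letters D and E (orange), with black bars at the medians. Annular furrow and body shape collagens sit below 0 in A to C and mostly at or above 0 in D and E, the col family splits into separate groups in D and E, and sperm genes lie above 0 in D and E.

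Several peptides known from the defence of the epidermis also fell. They were grouped after their values were seen: of 16 tested nlp-24 to nlp-34 and cnc genes, 5 were called lower, none higher, and 10 were lower in all 5 letters. nlp-24, nlp-25, nlp-29, nlp-31 and nlp-34 carry neuropeptide-like names, and nlp-29 and its neighbours are known as antimicrobial peptides that the epidermis makes after wounding or fungal infection. nlp-29 measured 720.2, 207, 629, 122 and 80.2 CPM in control libraries A to E and 107, 68.1, 137, 47.9 and 39.8 CPM in overexpressing libraries A to E. Every letter was lower, and the fitted log2 change was -1.78 ± 0.34 (SE, adjusted p = 0.0724 by edgeR). nlp-31 measured 341, 244, 298, 295 and 227 CPM in control libraries A to E and 66.7, 51.7, 59, 149 and 147 CPM in overexpressing libraries A to E. Its groups did not overlap, and its change was smaller in letters D and E, at -0.84, than in letters A to C, at -2.29 (interaction in edgeR, adjusted p = 0.0901).

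Over the whole list of flp and nlp genes, most of which encode neuropeptides of neurons, 9 of 48 fell and none rose; 17 were lower and 2 higher in all 5 letters. Besides the 5 peptides above, flp-12, flp-32, nlp-21 and nlp-41 were called. flp-12 fell by 1.23 and flp-32 by 1.37 on the log2 scale. In A to C alone 16 of 46 fell and 4 rose, with a median of -0.32, and in D and E alone 1 of 67 fell, with a median of -0.74. In whole worms, fewer cells of a type and less RNA per cell cannot be told apart.

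In the intestine, where elt-2 is expressed, few genes of the lists of digestive enzymes, lumen and lysozymes were called over all letters. Of 20 intestinal proteases and esterases tested, among them the cathepsin B gene cpr-1 and the aspartyl protease asp-1, none was called, 2 were higher and 2 lower in all 5 letters, and the median log2 change was -0.03 against 0.09 over all genes. Of the 20, 5 rose and 8 fell in A to C alone, beside 17.6% and 18.6% of all genes, and in D and E alone none was called. Of 10 genes of the brush border and lumen, the intermediate filament gene ifc-1 fell, from 44.6 ± 19.8 to 19.4 ± 13.3 CPM (SD, n = 5 each), and the intestinal actin act-5 was not called. The invertebrate lysozymes ilys-2 and ilys-3 fell among 25 lysozymes and saposins. Of these 25, 6 rose and 5 fell in A to C alone, beside the same shares of all genes. ilys-3 measured 12.9, 24.8, 19.5, 68.5 and 41.8 CPM in control libraries A to E and 2.24, 13.1, 9.76, 18.7 and 5.3 CPM in overexpressing libraries A to E (log2 change -1.85, adjusted p = 0.0856 by edgeR), and its neighbour ilys-2 fell by 1.18. None of the 3 other GATA factors tested, egl-18 and elt-3 among them, was called.

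Genes that the study had classed by their response to elt-2 RNAi in other animals gave 3 lists, each made of the genes that were lower on RNAi. Of 90 general intestinal genes, 2 fell and none rose, with a median of 0.01 against 0.09 over all genes. Alone, A to C had 24 of 92 that rose and 14 that fell (beside 17.6% and 18.6% of all genes), with a median of 0.25. In D and E alone 1 of 87 fell, with a median of -0.23. Of 28 genes of adult function none was called over all letters, and 6 of 26 rose and 2 fell in A to C alone. Of 52 genes of intestinal establishment, 5 fell and none rose, 22 were lower and none higher in all 5 letters, and the median was -0.44. Its median was also below 0 in each set of letters, at -0.65 and -0.46, and at Day 13, at -0.46. Fitted alone, A to C had 22 of 53 that fell and 6 that rose, and in D and E alone 2 of 52 fell. With plain library totals 14 in place of 22 were lower and 3 higher in all 5 letters, and the median was -0.13 against 0.41 over all genes. The members called were nlp-25, dod-3, F53A9.8, scl-2 and clec-49. scl-2, of the family of cysteine-rich secretory proteins, measured 58.5, 147, 88.6, 205 and 178.3 CPM in control libraries A to E and 19.3, 36.8, 37.1, 68.5 and 63.4 CPM in overexpressing libraries A to E. The letters differed little, between -1.24 and -1.98. F53A9.8 fell from 249 ± 97.4 to 79.7 ± 45.5 CPM (SD, n = 5 each) with no overlap of the groups. C50F7.5, of the general intestinal list, fell from 33.2 ± 15.3 to 6.14 ± 2.21 CPM (SD, n = 5 each), also with no overlap.

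In metabolism, 2 genes of the lists were called. icl-1, which encodes the bifunctional enzyme of the glyoxylate cycle that lets worms make sugar from fat, measured 145, 128, 155, 152 and 100.4 CPM in control libraries A to E and 38.4, 28.5, 43.1, 77.6 and 53.3 CPM in overexpressing libraries A to E. No overexpressing library reached the lowest control library (log2 change -1.56 ± 0.32 as SE, adjusted p = 0.0776 by edgeR). pck-1, which encodes phosphoenolpyruvate carboxykinase of gluconeogenesis, was also lower in all 5 letters, at 181.7 ± 64.8 CPM in control libraries and 98.4 ± 47 CPM in those of the other strain (SD, n = 5 each), without a call. acox-1.2, an acyl-CoA oxidase of peroxisomal beta-oxidation, rose from 0.736 ± 0.620 to 2.31 ± 2.01 CPM (SD, n = 5 each; log2 change 1.70 ± 0.29 as SE, adjusted p = 0.0552 by edgeR). None of the 13 tested fatty acid desaturases and elongases was called over all letters, but 10 of 13 rose and 1 fell in letters A to C alone, with a median of 1.04 there and -0.13 in letters D and E. elo-6, an elongase of branched-chain fatty acids, measured 14.4, 12.9, 8.55, 38.3 and 25.6 CPM in control libraries A to E and 42.3, 84.9, 33.2, 48.1 and 31.6 CPM in overexpressing libraries A to E, with differences over 1.5 in letters A to C and near 0.3 in letters D and E. No member of glycolysis (18 tested), the citric acid cycle (15), the ATP synthase (5), the propionate shunt (5), the methionine and canonical propionate pathways (14), the cytochrome P450s (13), the UDP-glucuronosyltransferases (19) or the glutathione transferases (16) was called over all letters.

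Major sperm proteins form the cytoskeleton of the crawling sperm. Their summed level was higher in the overexpressing library of every letter, at 6423 to 7799 CPM against 5417 to 6419 CPM in letters A to C, 1266 against 499.8 CPM in letter D and 947 against 112.7 CPM in letter E. The median over genes was below 0 in A to C, so that sum and median differed in sign there. Of 28 genes tested, none was called over all letters, 8 were higher and none lower in all 5 letters, and the median difference was -0.07, -0.15 and -0.33 in letters A to C and 1.22 and 2.70 in D and E. In both D and E, 27 of the 28 were higher. Alone, A to C had 4 of 29 called higher and 5 lower and D and E none of 26, and the interaction was called for 10 of the 28. msp-64 measured 620.4, 665, 549, 48.1 and 11.9 CPM in control libraries A to E and 828, 988, 1033, 120.5 and 99.2 CPM in overexpressing libraries A to E. The difference was largest where the control was lowest, in letter E. Of 39 other sperm genes, ssq-3 and nspd-3 rose and none fell, 9 were higher in all 5 letters, and the median was -0.12 in A to C but 1.66 in D and E. nspd-3, of a sperm-enriched peptide family, rose from 18 ± 11.1 to 47.3 ± 22.3 CPM (SD, n = 5 each). These genes are near copies of each other and their reads may be split.

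Yolk, oocyte and eggshell genes had positive fitted changes, with calls in single sets of letters but not over all of them. In letters D and E alone 4 of the 6 vitellogenins rose, with a median of 4.5 over the list, and in A to C alone none was called. All 6 had positive fitted changes over all letters, where none was called, and only vit-4 was higher in all 5 letters. vit-2 measured 2961, 762, 2821, 4.3 and 0.385 CPM in control libraries A to E and 1731, 1664, 1296, 40.9 and 35.1 CPM in overexpressing libraries A to E. It was lower in letters A and C and higher in B, D and E, and for 4 of the 6 genes the sets differed by the interaction. All 18 oocyte and eggshell genes had positive fitted changes, 6 were higher in all 5 letters (chs-1, oma-1, cbd-1, rme-2, egg-1 and egg-2), and none was called over all letters. Their summed level was lower in letters A and C, at 3011 against 4747 CPM and 2305 against 3634 CPM. It was higher in B, D and E, at 3483 against 1275, 94.0 against 41.4 and 85.5 against 28.5 CPM. The median difference was -0.33 in letter C and positive in the other letters. Of the 18, 4 rose in A to C alone, and in D and E alone 2 of 14 rose. rme-2 encodes the yolk receptor of the oocyte, and egg-1 and egg-2 encode receptors needed for fertilisation. ule-2 and ule-4, named for expression in the uterine lumen, rose. ule-4 measured 15.1, 11.8, 14.3, 0.113 and 0.0481 CPM in control libraries A to E and 40.7, 65, 38.7, 2.46 and 0.852 CPM in overexpressing libraries A to E. In letters D and E the summed yolk level was 141 and 113 CPM in the overexpressing libraries against 15.1 and 3.75 CPM, and sperm levels were higher too, while the summed col level was higher in D, at 24510 against 16578 CPM, and lower in E, at 23104 against 33759 CPM. Their part in the strain difference of other genes was not tested.

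Cytosolic ribosomal proteins, which made up most of the counts, had lower TMM-scaled values by small steps, but their share of the raw counts went both ways. It was 60.8%, 59.6% and 60.2% in overexpressing libraries A to C against 57.7%, 54.9% and 55.0% in control, and 60.4% and 65.1% in D and E against 62.7% and 66.6%. The TMM factors were 0.749 to 0.78 in control libraries A to C and 0.9 to 1.1 in overexpressing libraries A to C. Of 79 tested, rpl-37 was called lower and 42 were lower in all 5 letters, with a median of -0.38 against 0.09 over all genes. With totals that leave out the top 3%, 22 were lower in all 5 letters and the median was -0.10 against 0.37, and with plain totals 7 were lower and 3 higher in all 5 letters and the median was -0.06 against 0.41. The list lay below the median of all genes by 0.46 to 0.47 under each scaling. A change of scaling moves all genes by nearly the same step, so this gap could hardly change. In A to C alone 30 of 79 fell and none rose, beside 18.6% and 17.6% of all genes, and in D and E alone none was called. rpl-37 measured 1503, 1532, 1307, 143 and 298 CPM in control libraries A to E and 338, 786, 543, 54.2 and 112 CPM in overexpressing libraries A to E. Of 33 proteasome subunits, none was called, 13 were higher and 1 lower in all 5 letters, with a median of 0.27, or 0.54 and 0.59 with totals without the top 3% and plain totals. Of these, 9 rose and 4 fell in A to C alone. Of 26 muscle genes none was called and 8 were lower in all 5 letters, with a median of -0.28. The median was -0.01 with totals without the top 3% and 0.04 with plain totals, so that its sign depended on the scaling. Its place below the median of all genes could hardly change with the scaling. Of the 26, 8 fell and none rose in A to C alone. Of 56 C-type lectins, secreted sugar-binding proteins, clec-49 and clec-61 fell, and in A to C alone 16 of 59 fell and 8 rose. Among 19 germline genes, 12 heat shock proteins, 10 lipases and fatty acid binding proteins, 4 genes of metal handling, 13 patched-related, 35 transthyretin-related and 32 F-box and MATH proteins, none was called over all letters.

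**Figure D3:**
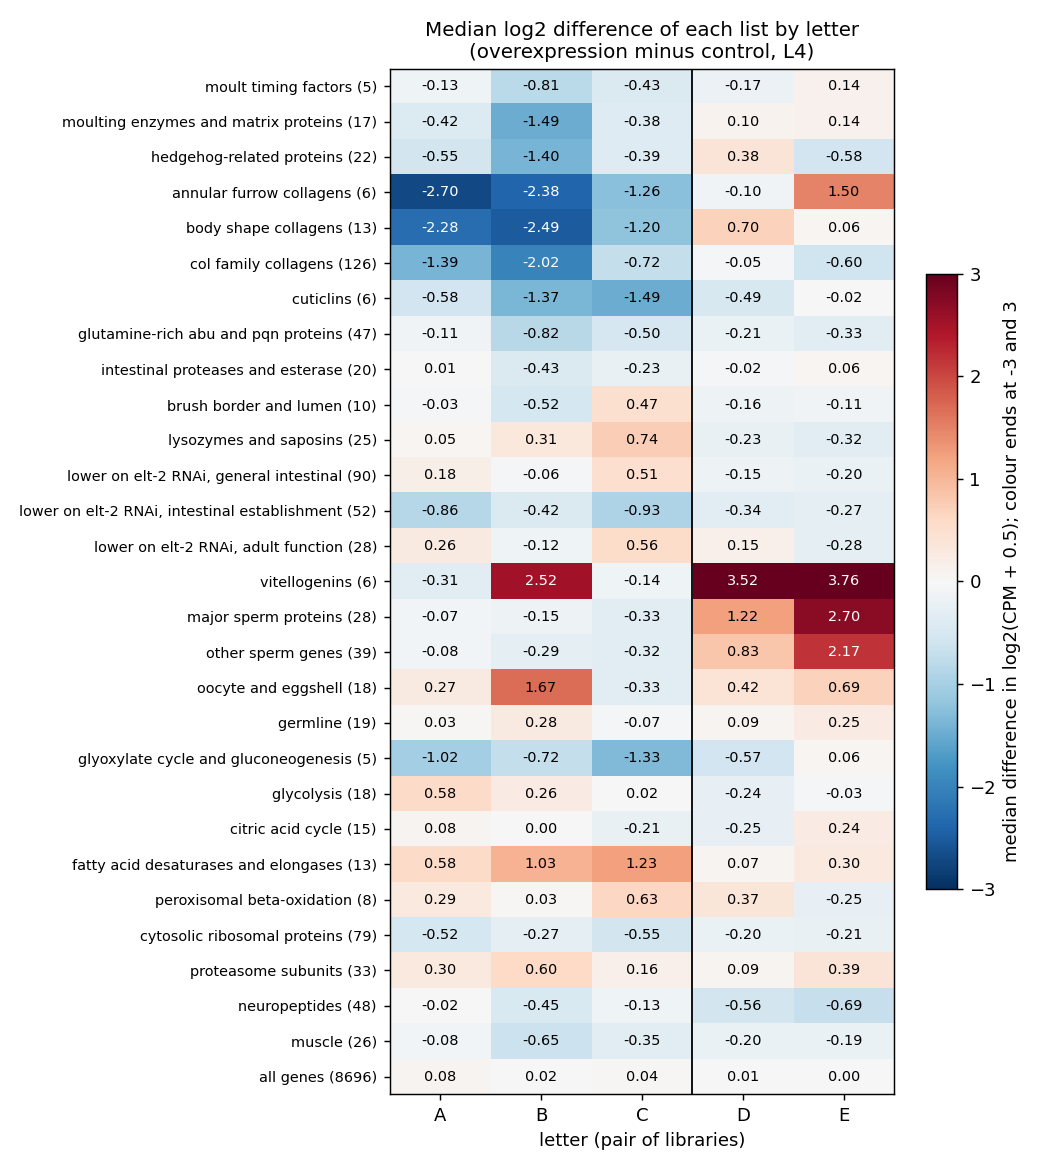
Median difference in log2(CPM + 0.5), overexpressing minus control, of 28 gene lists and of all genes, in each of the 5 letters; the number of genes tested follows each name, and colour runs from blue (lower) to red (higher). Annular furrow collagens go from -2.70 in A to 1.5 in E, and major sperm proteins from -0.07 to 2.70. With TMM factors, ribosomal proteins and the intestinal establishment list are below 0 in all 5 letters. So are the col family, cuticlins, abu and pqn proteins, neuropeptides and muscle genes.

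fipr-24 and C37A5.3, close neighbours on chromosome I, were the first and the fourth of the 10 with the largest falls. fipr-24 had 120, 23, 79, 98 and 58 counts in control libraries A to E and 0, 2, 7, 9 and 0 counts in overexpressing libraries A to E. Its groups did not overlap, and its log2 change of -4.61 ± 0.73 (SE, adjusted p = 0.0495 by edgeR) depends on the count added at 0. C37A5.3 fell from 12.2 ± 11.1 to 1.14 ± 0.721 CPM (SD, n = 5 each).

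K01A6.7 measured 7.68, 11.5, 10.7, 6.52 and 10 CPM in control libraries A to E and 0.856, 0.416, 1.34, 1.04 and 1.3 CPM in overexpressing libraries A to E. The libraries of each strain lay close together, and no letter differed by less than 2 log2 units (log2 change -3.26 ± 0.37 as SE, adjusted p = 0.0255 by edgeR). Its neighbours K01A6.4 and K01A6.8 fell as well. K01A6.4 fell by 2.71, and K01A6.8 fell by 1.65. F48G7.5 and F48G7.8, about 4 kb apart on chromosome V, fell: the former fell by 2.96 and the latter fell by 2.87 on the log2 scale.

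Among genes that rose, T19H12.6 measured 1.78, 1.59, 1.64, 0.754 and 1.3 CPM in control libraries A to E and 6.71, 7.49, 6.62, 7.65 and 12.5 CPM in overexpressing libraries A to E. The groups did not overlap and both sets rose, by 2.07 in A to C and 3.26 in D and E (log2 change 2.53 ± 0.33 as SE, adjusted p = 0.036 by edgeR). ZK813.7 and C45B2.1, on the X chromosome, rose to means of 54.6 ± 50.0 and 17.6 ± 12.1 CPM from 11.5 ± 15.2 and 4.76 ± 4.64 CPM (SD, n = 5 each). Both were far lower in letters D and E than in A to C of either strain. C34F11.2, K09C6.9 and T12B5.15 rose from means under 1 CPM, to 1.39, 1.17 and 3.77 CPM.

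Many more genes separated the strains in letters A to C alone than in all letters. In that set 3258 of 9007 genes were called, and 1216 of them (37.3%) had 1 direction in all 5 letters. The other 2042 rest on letters A to C, 1043 of them higher and 999 lower, and 742 (22.8% of those called in the set) moved the opposite way in both D and E. Of all 8696 genes tested over all letters, 2632 were higher and 2521 lower in both D and E. The 37.3% and the 22.8% are to be read beside these counts. In letters D and E alone 81 of 8963 genes were called (0.904%), 48 higher and 33 lower. Of these, 47 were also called in A to C, 32 in the same direction. Every one of the 53 genes that rose and the 136 that fell in all letters, and that could be tested in both sets, is in the matching quadrant of the plot of the sets, which follows from the demand for 1 direction.

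**Figure D4:**
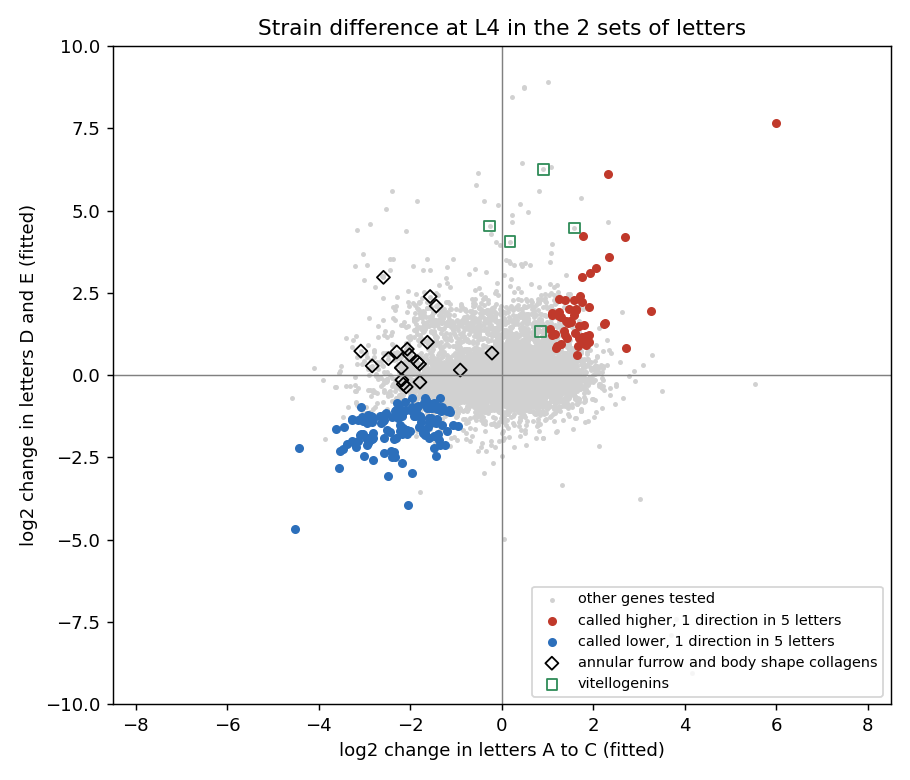
Fitted log2 change of 7731 genes in letters A to C (horizontal) and in letters D and E (vertical), 1 of them beyond the axes. Red and blue points are the called genes with 1 direction in all 5 letters, 53 higher and 136 lower; the 19 annular furrow and body shape collagens (diamonds) lie to the left of 0 and mostly above it, and the 6 vitellogenins (squares) lie above 0 in D and E.

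The genes resting on letters A to C with the largest changes were of several kinds. C45B2.8 measured 18.5, 39.8, 31, 1.96 and 1.78 CPM in control libraries A to E and 2.76, 2.29, 0.602, 1.81 and 2.71 CPM in overexpressing libraries A to E. It fell where the control was high and was level in D and E (interaction in edgeR, adjusted p = 0.0399). In A to C, T27E7.1 fell by 3.90, idpp-3 fell by 3.64 and K08D12.8 fell by 4.58. pph-5 had 12, 24, 51, 0 and 3 counts in control libraries A to E and 0, 0, 0, 0 and 3 counts in overexpressing libraries A to E.

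Of the 5 that rose most in letters A to C, 4 were collagens, col-35, col-36, col-84 and col-102. col-84 measured 0.171, 4.35, 0.273, 1.92 and 3.12 CPM in control libraries A to E and 1.38, 31.1, 32.5, 0 and 0 CPM in overexpressing libraries A to E. It was higher in overexpressing libraries A to C and not found in D and E, where the control libraries had 51 and 65 counts. col-36 and col-102 were likewise higher in A to C and lower in D and E. Y48E1B.8 rose in letters A to C from 1, 1 and 0 counts to 103, 16 and 13 counts, while in letters D and E it measured 154 and 445.0 CPM in control and 121 and 413 CPM in overexpressing libraries.

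At Day 13 no gene was called in the same comparison (0 of 8544 or 0% in edgeR with the letter as a block, with 854 genes at an unadjusted p under 0.05, and 1 gene without the block). Those libraries are separate from the L4 libraries and allow the direction to be compared. Of the genes that fell at L4, 84 were tested at Day 13 and 80 had negative fitted changes there, with a median of -0.94; of those that rose, 48 were tested and 45 had positive ones, with a median of 0.87. Over the 7253 genes tested at both ages, 78.4% had the same direction. In all 5 letters at Day 13, 6 of the 84 were lower and 7 of the 48 higher, beside 3.45% and 5.16% of all genes. unc-119 and elt-2 differed by 4.06 and 2.46 at Day 13, scl-2 by -1.49 and clec-49 by -1.42, while ilys-2 had the opposite direction, at 0.92.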

How the data were processed

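RNA was measured by 3SEQ. Only the polyadenylated end of each transcript is read, and gene length does not enter a count. The authors deposited 1 table of raw read counts per gene for all libraries, and their processing notes name Bowtie 0.12.7; build, annotation, strand and treatment of copies are not given in the sources used here. The 3 columns without a name were not used. Groups and letters came from the sample titles. Genes were named through Ensembl 115 (WBcel235), which placed 20878 of 21383 genes (97.6%). No sequences are shown.

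Counts of the 10 L4 libraries (18653974 to 42317549 each) were fitted in edgeR 4.0.16 under R 4.3.3. By plain library totals, without TMM factors, 3 counts correspond to 0.0709 to 0.161 CPM, counting error only. In the TMM-scaled CPM of the text, 3 counts were 0.103 CPM for clec-61 in control library A. They were 0.113 CPM for ule-4 in control library D. The fit used filterByExpr, TMM, the letter as a block and robust glmQLFit. The study treats its replicate sets separately, which the block follows. Same-letter libraries deviated together from their group means (correlation 0.51 to 0.80 over genes), and less so within the sets A to C and D to E (0.02 to 0.39). The labels do not describe the 5 libraries of a group beyond their letters, while the study's methods call them biological replicates. Sets A to C and D to E were fitted alone and by interaction, and Day 13 alike. Alternatives were no block, DESeq2 1.42.0, limma 3.58.1 (voom), other scalings and filters (plain library totals chosen after seeing the data), and each letter left out; fits were tested on simulated data. The study's rate of 10% was used.

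Genes named in the text were the 10 largest called changes each way with 1 direction in all letters, the 5 largest each way resting on letters A to C, the genes of the transgenes and, per list, up to 4 called members or, under 2, the 2 most abundant; others illustrate a list and were picked after their values were seen. The groups, lists and members were chosen with earlier results of these data known.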

Additional observations from a re-analysis of the deposited data

Results flagged for a closer look

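Over the 120 genes chosen for naming, 14 of 240 groups of 5 libraries had 1 library far from the others. The limit used gives about 1 in 20 for independent, normally distributed values. CPM of libraries from 2 differing sets of letters are not such values, so the count cannot be set against that rate. Library E was the highest in the overexpressing group for T19H12.6 (12.5 CPM, next 7.65), unc-119 (20.3 CPM, next 9.95), unc-54 (204.8 CPM, next 134.1), abu-10 (19.5 CPM, next 5.80), the methionine cycle gene ahcy-1 (444.6 CPM, next 188) and pph-5 (0.111 CPM, the others at 0). It was the highest in the control group for idpp-12 (67.5 CPM, next 19.3), F48G7.8 (8.17 CPM, next 2.41) and col-54 (230.6 CPM, next 70.2). In control larvae, library A was the highest for unc-119 (0.309 CPM, next 0.0754), and library B for col-35 (1.40 CPM, next 0.182) and col-102 (1.59 CPM, next 0.481). In the overexpressing group, library D was the highest for the hedgehog-related gene qua-1 (376 CPM, next 74.9), and library B for the proteasome gene pbs-1 (261 CPM, next 127).

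The strain difference was not the same in the 2 sets of letters for 24 of these 120 genes by the interaction in edgeR's quasi-likelihood test. Over all genes tested the share was 7.29%. The 120 include the 5 largest each way resting on letters A to C, which were picked for lacking 1 direction in all letters. The count therefore says little about the genes beyond how they were picked. The difference in D and E minus that in A to C was positive for abu-8 (2.02), ule-4 (2.51), col-178 (3.86), C45B2.8 (4.36), T27E7.1 (3.80), idpp-3 (3.32), nlp-25 (2.16) and nlp-31 (1.5). It was also positive for the collagens dpy-3 (2.69) and dpy-9 (3.03), the vitellogenins vit-2 (4.90) and vit-6 (3.94), the eggshell genes perm-2 (4.23) and perm-4 (3.29), and for sym-1 (3.00), ptc-3 (2.29), daf-22 (1.64) and pat-10 (1.52). It was negative for elo-6 (-1.76) and nlt-1 (-1.51), and for col-36 (-11.14), col-84 (-13.35), col-102 (-6.76) and Y48E1B.8 (-5.73). The size of these last 4 values rests on libraries with few or no counts. ilys-2 was lower in all 5 letters at L4 and higher in all 5 at Day 13, where its log2 change was 0.92; that difference between ages was not tested.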

How the results depend on the processing

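All 211 genes called at L4 kept their direction in every alternative that tested them. Most had 1 direction in all 5 letters, so that leaving letters out could hardly turn them. Their number did not hold. It was 3 without the replicate block, 377 with totals that leave out the top 3% (241 higher and 136 lower, 176 shared with the 211), 830 with plain library totals, chosen after seeing the data (676 higher and 154 lower, 198 shared), 397 without a filter on low counts, 386 with 10 counts in each library of a group, 437 by limma voom, 982 by DESeq2, 3258 in letters A to C alone and 81 in letters D and E alone. Leaving out each letter gave between 0 and 310 calls. With DESeq2 size factors there were 185, of which 183 were shared. The interaction with the sets of letters was called for 634 genes, and for 1284 with totals that leave out the top 3%, where 900 in place of 131 were lower in D and E than in A to C. At Day 13 the 0 calls with the replicate block became 1 without it, 1 with totals that leave out the top 3% and 4602 in letters A to C alone, a set chosen after seeing the data. Genes with 1 direction in all 5 letters numbered 1952, or 1957 with totals that leave out the top 3%, of which 1221 in place of 960 were higher.

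Of the genes named, 4 that rest on letters A to C turned in letters D and E alone: C45B2.8 to 0.20, col-36 to -7.41, col-84 to -9.07 and Y48E1B.8 to -0.26. Y48E1B.8 was also at -0.15 without the replicate block. Leaving out 1 letter put col-36 between -1.30 and 2.15 and col-84 between -0.78 and 2.72, negative without A, B or C. The cause was not tested. Genes under the floor of 3 counts in a library could not be told from absent ones at this depth.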

Other observations

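The split of the col family in letters D and E was described after it was seen. In those letters 27 of the 126 tested col genes differed by more than 2 on the log2(CPM + 0.5) scale, among them col-19, a collagen of the adult cuticle. Their median level was between 1324 and 3068 CPM in control libraries A to C and between 1950 and 2286 CPM in overexpressing libraries A to C. In letters D and E it was between 2.21 and 3.96 CPM in control libraries and close to 101 CPM in overexpressing libraries, at 100.9 and 101.2. These collagens were thus abundant in both strains of the first set, scarce in control larvae of the second, and in between in overexpressing larvae of the second. In letters A to C, 13 of the 27 were lower and 6 higher in all of the letters. The members were picked by their values in D and E, and no test of these 27 is given.

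Only 55 of the 211 called genes belonged to any of the lists.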
